A study of Homo sapiens with 4 samples.

Results

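The genes described here are 39 genes of DNA replication and of the step from G1 into S phase of the cell cycle, measured in a tumor cell line after transfection of a microRNA mimic. The probes were taken from the array by these gene names, but the genes were chosen with earlier results of these data known. Among 36337 gene names on the array they had 46 probes, with 1 probe each for 33 genes and several for 6. For each gene the probe with the highest mean signal over all arrays was used. Testing required a signal well above background on the 2 arrays of either group, and 38 of the 39 genes met this condition, all of them on all 4 arrays. The exception was CDC6.

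GIST-T1 is an established cell line from a human gastrointestinal stromal tumor (GIST). The cells were transfected by electroporation with 100 pmol of a miR-335 mimic, which is a chemically made stand-in for the mature microRNA, or of a negative control mimic, and total RNA was taken after 48 h. Each group had 2 arrays, which are all the samples of the series, and the labels do not say whether the replicates came from separate cultures, so the p-values measure the spread between these arrays only. In 1 description line both mimic samples carry the name miR-34a_mimic, whereas their titles, their other description line and their transfection field all say miR-335; they are taken here as miR-335. The arrays sat on 1 slide, with the control samples at positions 1 and 2 and the mimic samples at positions 3 and 4, so position and group cannot be told apart. Of the 6 markers of GIST examined, all (KIT, ANO1, ETV1, PRKCQ, CD34 and PDGFRA) were well above background on every array. By the brightest probes, the differences between the groups (mimic minus control, log2) ran from -0.33 for KIT (adjusted p 0.051, limma) to -0.07, with none called. A dimmer ANO1 probe went the other way, at 0.47 (adjusted p 0.053, limma), against -0.07 for the brightest ANO1 probe. A dimmer ETV1 probe differed by 0.01, and the remaining dimmer probes of KIT, ETV1 and CD34 were lower with the mimic. In contrast, 9 of 12 markers of other cell types were well above background on none of the arrays by their brightest probe. EPCAM and DES were well above background on 4 arrays, with differences between the groups of -0.89 and -0.25 that were not called, and CD68 on 2; their part in the results was not tested.

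A cell prepares each replication origin in G1 by loading the ring-shaped MCM2-7 helicase, with the help of the origin recognition complex, CDC6 and CDT1. On entry into S phase, cyclin-dependent kinases and the CDC7-DBF4 kinase switch the helicase on by joining CDC45 and GINS to it. DNA polymerases, held on the DNA by the PCNA clamp, then copy the strands. Most of these genes are transcribed in late G1 under the E2F transcription factors, which the retinoblastoma proteins hold in check until cyclin D and cyclin E kinases release them.

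The sample descriptions name a miR-335 mimic without saying which mature arm it carries. The 5′ arm is shown, whose seed (bases 2 to 8, in capitals) sets which messages this arm can pair with. RefSeq places it at chr7:130496126-130496148 of GRCh38.p14, on the plus strand.
hsa-miR-335-5p: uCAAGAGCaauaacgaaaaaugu
The complement of this seed, GCTCTTG, was found in 0 of the 46 probe sequences of the 39 genes and in 221 of all 50599 probe sequences (0.437%). For the seed of the 3′ arm the complement, ATGAAAA, was found in 0 of the 46 and in 618 of all 50599 (1.22%). A probe covers 60 bases of a transcript, so these counts say nothing of the remainder of each message.

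Promoter stretches that hold an E2F word, as defined below, are shown next, since the E2F factors are themselves among the genes described. They were picked for these words, from genes with higher and with lower means on the mimic arrays. Promoters came from RefSeq (GRCh38.p14) as the 250 bases before a start site; 34 of the 39 genes had at least 1, with 43 promoters in all, and CCNE2, GINS4, MCM4, MCM5 and POLD3 had no entry in the table used. The capitals mark any of the E2F words TTTCCCGC, TTTCGCGC, TTTGCCGC and TTTGGCGC on either strand, and each stretch of 30 bases reads in the direction of its gene.
E2F2, chr1:23531257-23531286, minus strand: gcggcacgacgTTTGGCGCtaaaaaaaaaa
E2F1, chr20:33686394-33686423, minus strand: ctttcGCGGCAAAaaggaTTTGGCGCgtaa
GINS2, chr16:85688967-85688996, minus strand: ctctcgccgtgGCGGGAAAacggcggccgc
POLE, chr12:132687343-132687372, minus strand: ctgggtgggagcGCGCCAAAtttctcccct
MCM6, chr2:135876575-135876604, minus strand: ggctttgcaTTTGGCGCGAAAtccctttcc
RFC3, chr13:33818083-33818112, plus strand: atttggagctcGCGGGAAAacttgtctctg
At least 1 of these words was present in 15 of the 43 promoters (34.9%), against 979 of 35116 promoters of all genes (2.79%). In the MCM6 stretch a pair of words, TTTGGCGC and the complement of TTTCGCGC, overlap by 4 bases, and the same arrangement recurs nearer the start site. Of the 15 genes with a word, 13 had a higher mean on the mimic arrays, E2F2 and POLE among them, and 2 a lower mean, MCM6 and RFC3. The 18 tested genes that had a promoter but no such word, POLD1 and ORC1 among them, all had a higher mean. A match describes letters in a window and is not evidence of binding.

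All values below are log2 processed signals minus the 75th percentile of the array, and each difference is the mimic mean minus the control mean on that scale. The change was small and mostly of 1 sign: 34 of the 38 tested genes had a higher mean on the mimic arrays, against 46.2% of all 20328 tested probes. The median difference of the genes was 0.11, compared with -0.01 over all tested probes. Among the 3122 tested probes with a mean level between 2.86 and 4.72, the range that holds the middle of the genes by level, the median difference was also -0.01 and 45.3% were positive. No gene of the 38 exceeded 1.5-fold, up or down; over all probes 2.43% were higher and 1.47% were lower by that much. The differences of the 38 genes ran from -0.24 for RFC3 to 0.38 for E2F2. In size, 31 of them (81.6%) were below 0.2, against 75.1% of all tested probes.

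By limma's moderated test with Benjamini-Hochberg adjustment over all 20328 probes, 1 of the 38 genes was significantly higher, E2F2, and 0 were lower. Over all probes 1.47% were called higher and 1.15% lower. At an unadjusted p of 0.05 the same test gave 15 genes higher (39.5%) and 1 lower, where all probes gave 11.7% and 13.7%. Both mimic arrays lay above both control arrays for 30 genes (78.9%) and below them for 4, compared with 27.1% and 32.5% of all probes. Because only 2 arrays stood against 2, no exact two-sided permutation p under 0.333 was possible for any gene taken alone, and the calls rest on the spread that limma pools over probes.

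The direction depended on how the arrays were scaled. The 7 spike-in RNA probes, added in fixed amounts, were between 0.12 and 0.26 higher on the mimic arrays after percentile scaling (median 0.19). When the arrays were scaled to the spike-ins instead, the median difference of all probes became -0.20 and that of the 38 genes -0.08, and 8 genes rather than 34 had a higher mean on the mimic arrays. Spike-in scaling moved every probe by the same amount, so the distance between both medians, 0.12, could not change and is no check of the shift. The statements that follow are therefore relative to the bulk of transcripts on the array, and the part that the amount of RNA per cell or of added spike-in plays was not tested.

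**Figure D1:**
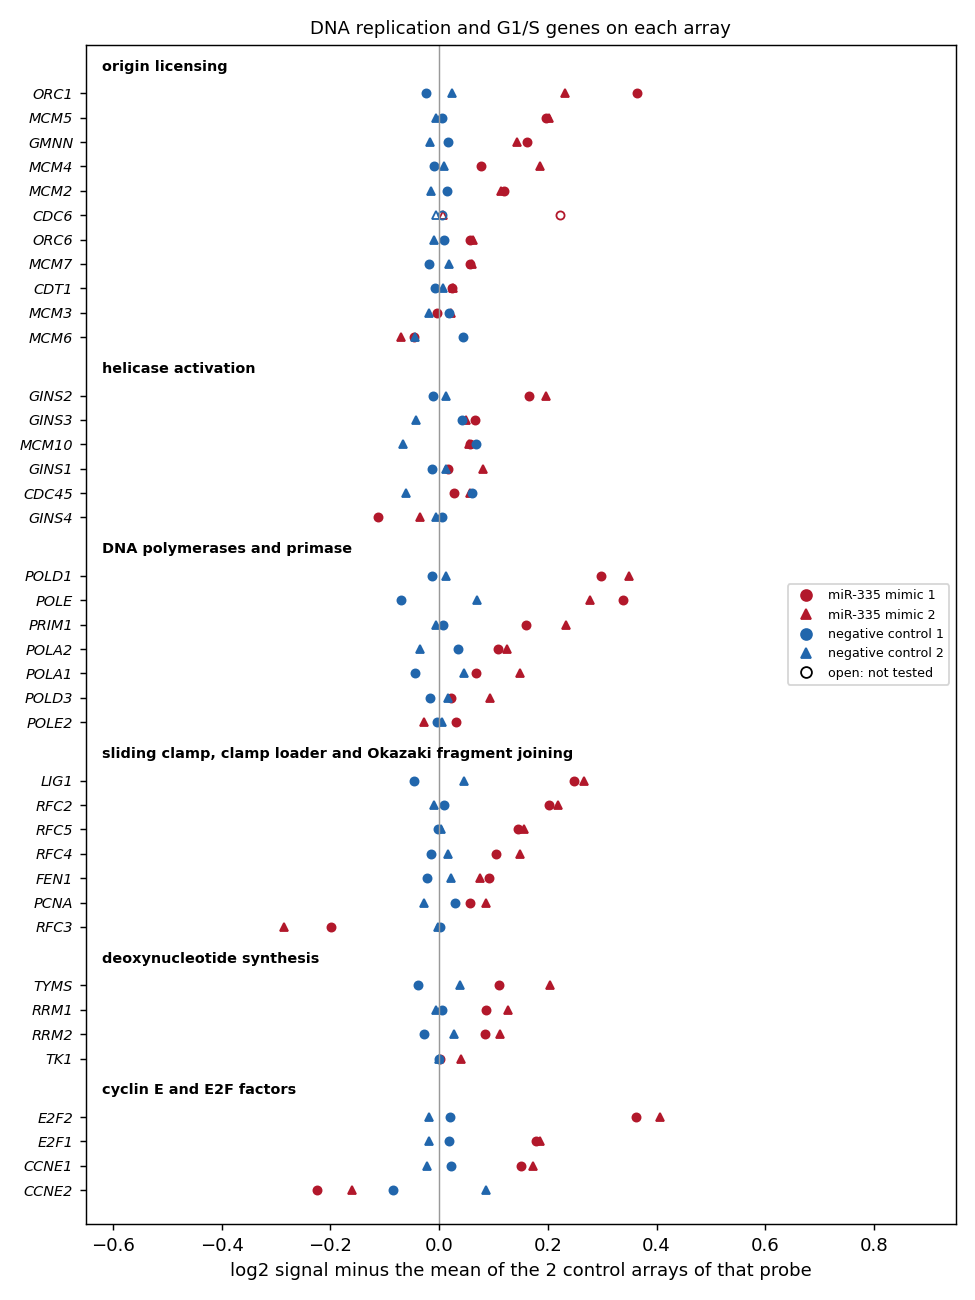
Each of the 39 genes on each of the 4 arrays, as log2 signal minus the mean of the 2 control arrays (horizontal axis), grouped by role; red marks are the miR-335 mimic, blue the negative control, circles replicate 1, triangles replicate 2, and open marks the untested CDC6. Both red marks lie right of both blue marks for 30 of the 38 tested genes and left of them for 4 (MCM6, GINS4, RFC3 and CCNE2).

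The shift was seen from every array pairing between the groups. The median of the 38 genes was 0.10 higher on mimic array 1 than on control array 1, and 0.09 higher than on control array 2. Mimic array 2 exceeded the same arrays by 0.12 in each case. Between 31 and 34 of the 38 genes were higher on the mimic array in these pairings, against 43.3% to 50.6% of all tested probes. The pairings reuse the same 4 arrays and are not independent of each other. Within groups the median difference was -0.02 for mimic array 1 minus mimic array 2 and 0.0015 for control array 1 minus control array 2, so the distance between groups was larger than the distance between replicates. The replicate difference of a single gene had a median size of 0.03 in both groups, against 0.06 over all probes. The genes were brighter, with a median level of 3.57 against 0.87 over all probes, and this spread was not compared at matched level.

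Among the origin licensing genes, 10 of 11 were tested and 9 had a higher mean on the mimic arrays, with a median difference of 0.09; none was called. ORC1, the largest subunit of the origin recognition complex, read -0.19 and -0.32 on the mimic arrays and -0.57 and -0.52 on the control arrays. The groups did not overlap, and the difference of 0.30 ± 0.06 (SE) had an adjusted p of 0.11. ORC1 is the subunit of the complex whose level is regulated through the cell cycle. ORC6, the smallest subunit, differed by 0.06. Of the 4 remaining subunits ORC5 differed by 0.10, ORC2 by -0.0066, ORC3 by -0.06 and ORC4 by -0.06, none of them called. Their dimmer probes differed by -0.05 for ORC5, 0.08 for ORC2 and -0.01 for ORC4.

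The MCM2-7 subunits, which form 1 ring in equal numbers, did not all lie on the same side of 0. MCM5 read 3.53 and 3.54 on the mimic arrays against 3.34 and 3.33 on the control arrays, a difference of 0.20 ± 0.04 (SE) with an adjusted p of 0.0897. A second, dimmer MCM5 probe differed by 0.09. MCM4 read 3.39 and 3.50 with the mimic and 3.30 and 3.32 with the control, a difference of 0.13 ± 0.05. MCM2 differed by 0.12 and MCM7 by 0.06 (0.09 with its other probe). The means of MCM3 were 0.0098 apart and its groups overlapped, and MCM6 had a difference of -0.06 with both mimic arrays just below both control arrays. No MCM subunit passed the adjusted threshold.

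The remaining licensing factors are CDT1, which brings the helicase to the origin, its inhibitor geminin, and CDC6. GMNN, which encodes geminin, read 3.19 and 3.17 on the mimic arrays and 3.04 and 3.01 on the control arrays. Its difference of 0.15 ± 0.04 (SE) was larger than the gap between replicates and had an adjusted p of 0.133. CDT1 itself hardly differed, at 3.93 on each mimic array and 3.90 and 3.91 on the control arrays (0.03 ± 0.04). CDC6, which loads the helicase together with CDT1, was well above background on 1 array of each group and was not tested. Its signals were -2.65 and -2.87 with the mimic and -2.87 and -2.88 with the control, so no difference could be resolved at this signal, and no fold is given.

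The 6 genes of helicase activation had the smallest median difference of the roles, 0.05, with 5 positive and 1 negative values. GINS2, a subunit of the 4-part GINS complex, stood apart with 4.56 and 4.59 on the mimic arrays and 4.39 and 4.41 on the control arrays. That difference was 0.18 ± 0.04 (SE) with an adjusted p of 0.109. Its partners lay lower: GINS3 differed by 0.06, GINS1 by 0.05 and GINS4 by -0.07. The GINS4 probe read 4.76 and 4.84 with the mimic against 4.88 and 4.87 with the control, and GINS3 read 3.30 and 3.28 against 3.27 and 3.19. MCM10, which helps the assembled helicase to start, read -0.06 on each mimic array and -0.05 and -0.18 on the control arrays, so its groups overlapped. CDC45, the third component of the active helicase, also overlapped, with a difference of 0.04.

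All 7 genes for DNA polymerases and primase had a difference above 0, with a median of 0.12, and none was called. POLD1, the catalytic subunit of the lagging-strand polymerase δ, read 3.25 and 3.30 on the mimic arrays and 2.94 and 2.97 on the control arrays. At 0.32 ± 0.04 (SE) and an adjusted p of 0.0614 it lay just outside the threshold. POLE, the catalytic subunit of the leading-strand polymerase ε, gave -0.22 and -0.28 with the mimic and -0.63 and -0.49 with the control (difference 0.31 ± 0.07, adjusted p 0.114); its other probe was well above background on 1 array only. PRIM1, the catalytic subunit of primase, read 2.54 and 2.61 against 2.39 and 2.37, a difference of 0.20 ± 0.05. POLA2, an accessory subunit of polymerase α, read 3.39 and 3.40 against 3.31 and 3.24 (0.12 ± 0.04).

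The other 3 genes of this role lay closer to 0. POLE2, an accessory subunit of polymerase ε, had a difference of 0.0011 with overlapping groups, POLD3, an accessory subunit of polymerase δ, of 0.06, and POLA1, the catalytic subunit of polymerase α, of 0.11. The subunits outside the 39 genes gave 0.19 for POLD2, -0.15 for POLD4, 0.05 for POLE3, 0.09 for POLE4 and 0.07 for PRIM2, and none was called. The dimmer probes of PRIM2 went the other way, at -0.15 each, and the other POLE4 probe differed by 0.10. Differences between subunits of a complex were not tested.

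Of the 7 genes for the sliding clamp, its loader and the joining of Okazaki fragments, 6 had a positive difference, with a median of 0.13. PCNA, the clamp itself, read 5.19 and 5.22 on the mimic arrays and 5.16 and 5.10 on the control arrays. Its difference of 0.07 ± 0.04 (SE) had an adjusted p of 0.376, and its other probes differed by 0.10 and 0.06. LIG1, the ligase that seals the fragments, read 3.35 and 3.37 with the mimic against 3.06 and 3.15 with the control, a difference of 0.26 ± 0.05 with an adjusted p of 0.0986. FEN1, the nuclease that trims the fragments before ligation, differed by 0.08.

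The clamp loader RFC contained both signs. RFC2 read 3.19 and 3.21 on the mimic arrays and 3.001 and 2.983 on the control arrays, a difference of 0.21 ± 0.04 (SE). RFC5 read 4.62 and 4.64 against 4.48 on each control array (0.15 ± 0.04), and RFC4 differed by 0.13. In contrast, RFC3 read 1.82 and 1.74 with the mimic against 2.02 on each control array. The RFC3 difference was -0.24 ± 0.05 with an adjusted p of 0.102, the lowest value of the 38 genes, and a second, dimmer probe of RFC3 differed by -0.08. The large subunit RFC1, outside the 39 genes, had a difference of -0.08.

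The 4 genes of deoxynucleotide synthesis were each higher on both mimic arrays than on both control arrays, as were 27.1% of all probes. Their median difference was 0.10, and none was called. TYMS, thymidylate synthase, read 5.29 and 5.39 with the mimic and 5.15 and 5.22 with the control (0.16 ± 0.06, SE). RRM1 and RRM2, the subunits of ribonucleotide reductase, differed by 0.11 and 0.10. RRM1 read 4.81 and 4.85 against 4.72 and 4.71, and RRM2 read 4.25 and 4.28 against 4.14 and 4.19. TK1, thymidine kinase of the salvage route, was close to level with 8.18 and 8.21 against 8.17 on each control array.

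The E2F and cyclin E genes held the only call and had a median difference of 0.17, with 3 positive values and 1 negative. E2F2, a transcription factor that activates S-phase genes, rose from 3.53 and 3.49 on the control arrays to 3.88 and 3.92 on the mimic arrays. The means were 3.51 ± 0.03 (SD, n = 2) and 3.90 ± 0.03, a difference of 0.38 ± 0.04 (SE) or 1.31-fold, with an adjusted p of 0.0491 by limma. The probe lies at chr1:23832933-23832992 (hg19). The call lay close to the threshold and was lost with a robust variance estimate (adjusted p 0.0521), under which 1.36% of all probes were still called higher. With an array left out, the difference stayed between 0.36 and 0.41 (adjusted p from 0.173 to 0.201); in those fits 0 to 8 of all 20328 probes were called higher and 0 lower, so a lost call there says nothing of this gene. E2F1, the other activator among the 39, read 4.33 on each mimic array against 4.17 and 4.13, a difference of 0.18 ± 0.04 with an adjusted p of 0.108.

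The cyclin E genes, which encode interchangeable partners of CDK2, lay on opposite sides of 0. CCNE1 read 6.71 and 6.73 on the mimic arrays and 6.58 and 6.54 on the control arrays, a difference of 0.16 ± 0.04 (SE) with an adjusted p of 0.132. CCNE2 read 0.49 and 0.55 against 0.63 and 0.80, a difference of -0.19 ± 0.08 with an adjusted p of 0.238, and its other probe overlapped between groups at -0.06. Neither passed the threshold.

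**Figure D2:**
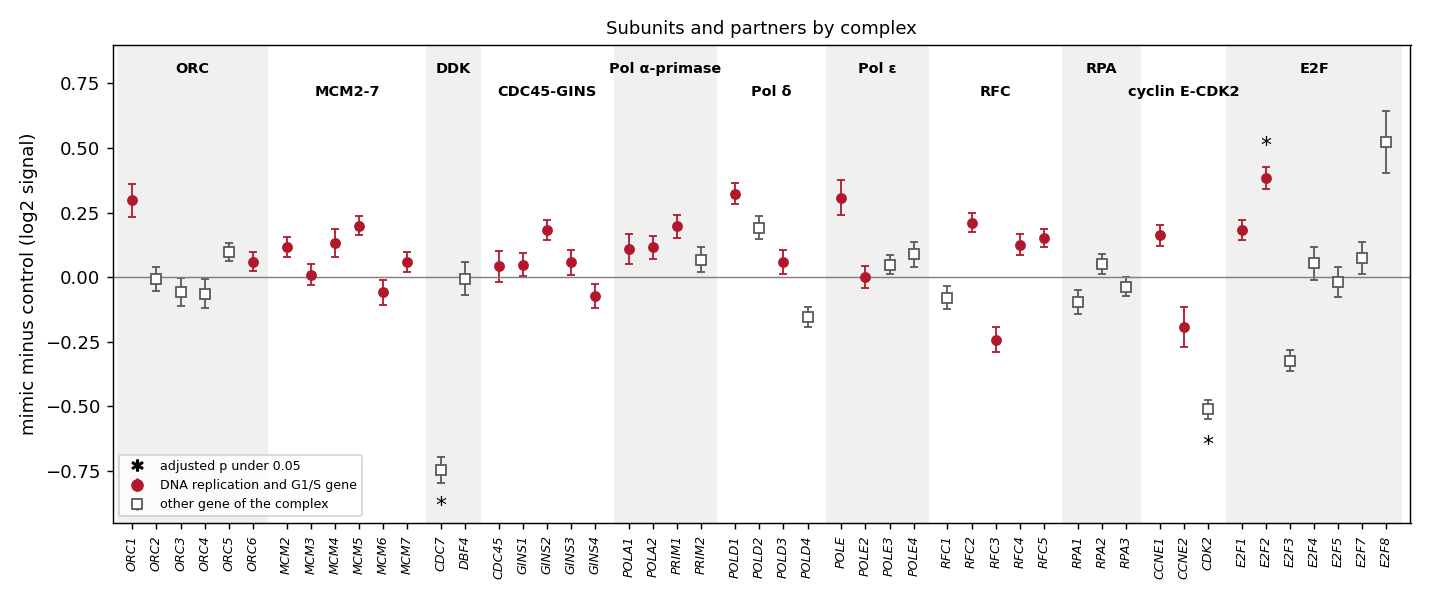
Difference between the group means (mimic minus control, log2 signal, vertical axis) for the subunits of each complex and for the E2F factors; filled red circles are among the 39 genes, open grey squares are other genes of the same complex, bars are limma's SE, and asterisks mark an adjusted p under 0.05. CDC7 and CDK2 lie furthest below 0 at -0.75 and -0.51, and RFC3 and CCNE2 lie below the other measured RFC and cyclin E genes.

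Partners of these genes were examined in 2 further lists. Of 32 other replication genes, all tested, 1 was called, CDC7, and it was lower; 21 had a positive difference and the median was 0.06. CDC7, the kinase that activates the loaded helicase, fell from 2.73 and 2.78 on the control arrays to 1.96 and 2.04 on the mimic arrays. The difference was -0.75 ± 0.05 (SE), or 1.68-fold, with an adjusted p of 0.0351. DBF4, its activating subunit, did not differ beyond its replicates, at 1.98 and 2.10 with the mimic and 2.01 and 2.08 with the control. CLSPN, a checkpoint mediator at the fork, read -0.31 and -0.55 against -1.0001 and -0.9281 (0.53 ± 0.10, adjusted p 0.0916). MCM9, an MCM relative outside the replicative ring, read -1.35 and -1.41 against -2.22 and -1.76, but its next brightest probe, detected on 3 arrays, went the other way (-0.41).

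In the list of other G1/S regulators, 16 of 17 genes were tested, 9 had a positive difference, the median was 0.03, and 1 gene was called, CDK2, which was lower. CDK2, the kinase of cyclin E, fell from -0.08 on each control array to -0.60 and -0.58 on the mimic arrays, a difference of -0.51 ± 0.04 (SE) or 1.43-fold with an adjusted p of 0.0351. Its G1 counterpart CDK4 had overlapping groups with a difference of 0.03. The other E2F factors lay on both sides: E2F3, an activator, read 1.75 and 1.71 against 2.04 and 2.06 (-0.32 ± 0.04, adjusted p 0.058). E2F8, a repressor, read -0.58 and -0.88 against -1.21 and -1.29 (0.52 ± 0.12, adjusted p 0.12). CDK6, the remaining gene, was not well above background on any array.

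With an array left out, the differences stayed between -0.79 and -0.71 for CDC7 (adjusted p from 0.143 to 0.189, limma) and between -0.52 and -0.50 for CDK2 (0.146 to 0.196). Since 0 of all probes were called lower in those fits, they cannot show whether these calls are stable.

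Genes of mitosis and G2/M were set beside the 39 genes because they mark a later phase of the same cycle. All 30 were tested, 27 had a positive difference and the median was 0.11. TOP2A was the only call (1 lower, 0 higher) and untangles DNA before chromosomes separate; it fell from 2.18 and 2.19 to 1.74 and 1.77 (-0.43 ± 0.04, SE, adjusted p 0.039). With an array left out its difference stayed between -0.45 and -0.42, in the same fits without any lower call. CENPA, the centromeric histone, read 1.51 and 1.55 against 1.22 and 1.27, and KIF20A, a kinesin of late mitosis, 1.40 and 1.38 against 1.11 on each control array; neither was called. A difference between the lists was not tested. These values are per array of pooled cells, so a change in the share of cells in S phase or G2/M and a change of RNA per cell cannot be told apart.

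**Figure D3:**
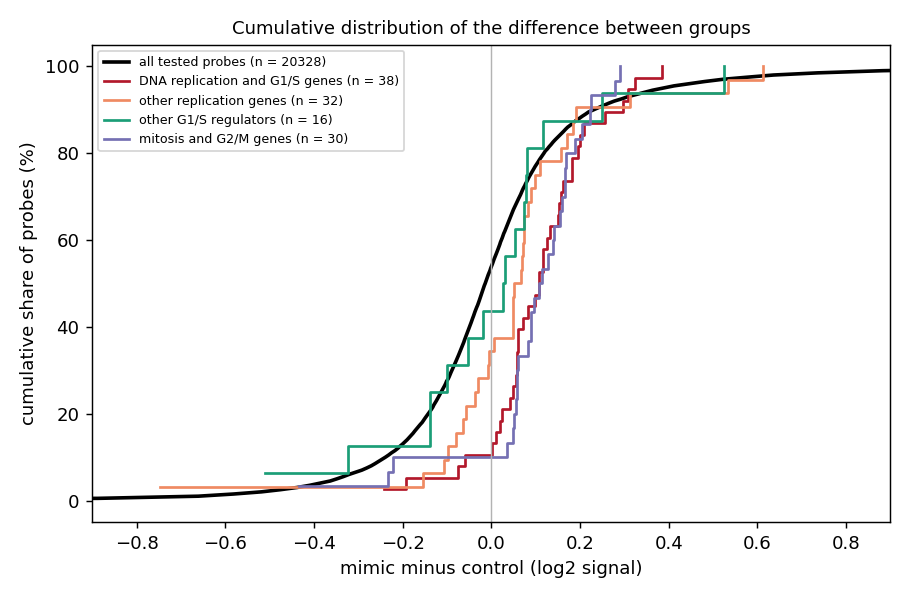
Cumulative share of probes (vertical axis, %) by the difference mimic minus control (horizontal axis, log2 signal, cut at 0.9 on each side) for all tested probes (black) and for each gene list. The curves of the replication and G1/S genes and of the mitosis genes run to the right of all probes through their middle, at medians of 0.11 and 0.11 against -0.01, while the other G1/S regulators stay near all probes at 0.03.

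**Figure D4:**
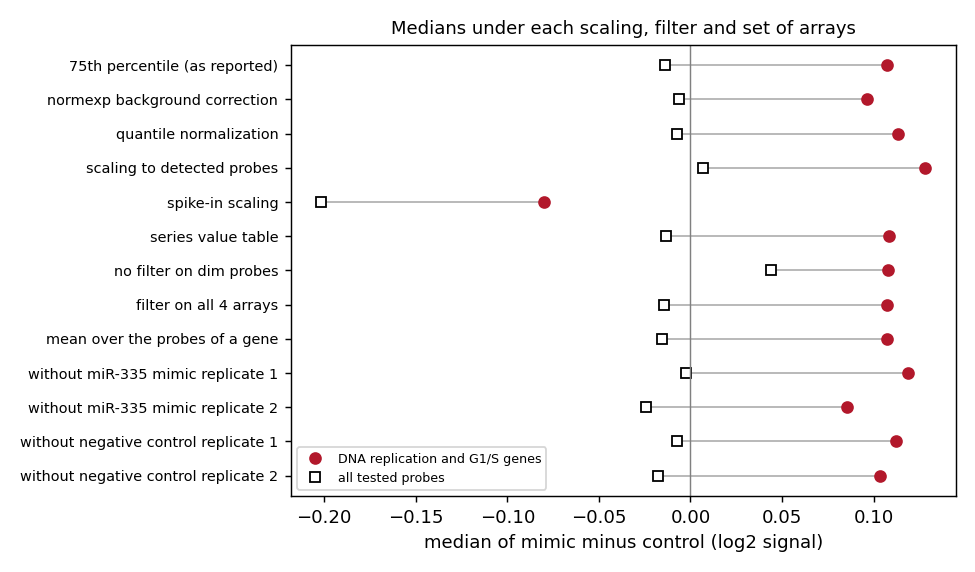
Median difference (mimic minus control, log2 signal, horizontal axis) of the replication and G1/S genes (red circles) and of all tested probes (open squares) under each scaling, filter and set of arrays (rows). The red circle lies right of the square in every row, and it lies below 0 under spike-in scaling only, at -0.08. Scaling to detected probes or to the spike-ins moves both marks by the same amount, so their distance is fixed in those rows.

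The promoter words also differed in frequency between the lists. The E2F words were in 15.8% of the promoters of the other replication genes, 17.6% of those of the other G1/S regulators and 9.68% of those of the mitosis genes. The letters TTTGAA or TTCGAA, the cell cycle homology region known from G2/M promoters, were in 4.65% of the promoters of the 39 genes, 5.26% of those of the other replication genes, 17.6% of those of the other G1/S regulators, 48.4% of those of the mitosis genes and 14.3% of all promoters. CCAAT, searched like the others on both strands, was in 58.1%, 44.7%, 41.2%, 74.2% and 32% in the same order.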

How the data were processed

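Gene expression in GIST-T1 cells was measured on 1-color human Agilent arrays, 2 per group, from 100 ng of total RNA. The authors deposited spot intensity values made with Agilent Feature Extraction (version 10.7 in the submitters' processing notes): the processed intensity is background-subtracted and not normalized between arrays. Per the file headers, other flag columns mark control spots, outlier spots and signals well above background. The deposited value table of the series repeats the processed intensity in rounded form and was tried as an alternative; 0 of its columns were unmatched.

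Of 62976 spots per array, 58717 were not controls and represented 50599 probes. Outlier spots (356 to 395 per array) were left out, replicate spots were averaged as log2 values, and the array's 75th percentile of log2 signal was subtracted. A probe counted as detected where at least 0.5 of its usable spots were flagged well above background, as 20386 to 21214 were per array; the number of arrays limits the precision. Probes with a value on all 4 arrays that were detected on the 2 arrays of either group were tested with lmFit and eBayes of limma 3.58.1 (R 4.3.3), without covariates, and a Benjamini-Hochberg adjusted p of 0.05 over 20328 probes was the threshold. The test was checked on simulated data. A difference above 1.5-fold carried no test.

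Every one of the 39 genes is named. Values per array are given for genes past the threshold, for up to 4 genes with the largest difference in each role, and for PCNA, CDC6, CDT1, CCNE1, CCNE2 and E2F1; in the other lists, for genes past the threshold and the 3 with the largest difference. The genes and lists were chosen with earlier results of these data known. Other subunits of the same complexes were added for comparison. Names of genes and their hg19 positions were read from the array files; exon and untranslated region positions were not analysed here. Alternatives were normexp background correction (offset 50), quantile normalization, other scalings, filters and variance models, a replicate block, and leaving out each array.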

Additional observations from a re-analysis of the deposited data

How the results depend on the processing

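The count of the 38 genes called higher (1, E2F2) became 3 under normexp background correction (3.9% of all probes), 2 when scaled to detected probes (1.61%), 15 with an intensity trend in the variance (6.63%) and 0 with a robust variance (1.36%). It was also 0 with no filter on dim probes and with the replicate number as a block, where 0 of all probes were called in either direction. The count called lower (0) became 1 under normexp (3.73% of all probes), 1 with the trend (8.54%) and 9 when scaled to the spike-ins (44.9%). The methods' t-test, which the study names for other assays, gave 15 genes higher and 1 lower at an unadjusted p of 0.05. At that limit the t-test gave 4115 of all 20328 probes, higher and lower together. After Benjamini-Hochberg adjustment it gave 0 genes higher, as over all probes. With an array left out, 0 of the genes were called higher and 0 lower; of all 20328 probes 0 to 8 were called, so these counts say nothing of stability. The labels do not say whether arrays with the same replicate number belong together. The correlation of their deviations was 0.03, but with 2 pairs it cannot decide this.

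The median difference of the 38 genes (0.11) was 0.13 when scaled to detected probes and -0.080 when scaled to the spike-ins, and lay between 0.085 and 0.12 with an array left out. Spike-in scaling also gave -0.13 for the other replication genes, -0.16 for the other G1/S regulators and -0.076 for the mitosis genes. With an array left out these medians lay between 0.038 and 0.083, between -0.014 and 0.052 and between 0.083 and 0.13, in that order. Under spike-in scaling both mimic arrays lay above both control arrays for 7 of the 38 genes (30 as reported) and below them for 26 (4 as reported). The same shares over all probes were not computed under spike-in scaling, where the median difference of all probes was -0.20. This scaling moved every probe by -0.19 and changed the sign of 26 of the 38 genes; among those with values per array these were CDT1 (-0.16), GMNN (-0.035), MCM4 (-0.056), MCM10 (-0.13), GINS2 (-0.0059), GINS3 (-0.13), POLA2 (-0.071), PCNA (-0.12), RFC5 (-0.037), RRM1 (-0.081), RRM2 (-0.090), TYMS (-0.031), TK1 (-0.17), CCNE1 (-0.026) and E2F1 (-0.0053). TK1 also changed sign under quantile normalization (-0.0049) and MCM10 without negative control replicate 2 (-0.011). The causes were not tested. All arrays shared 1 slide and 1 scan, so a fit with the slide or scan as a block was not run.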
